A study of Mus musculus and Rattus norvegicus with 96 samples.

Results

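Liver fixed fresh in formalin was compared with frozen liver of the same animals in 24 of the 96 libraries of the series, which make 12 pairs of libraries. The members were the mouse liver libraries whose titles mark them as directly fixed (FFPE) or frozen (FR), and each FFPE library was paired with the FR library that carries the same mouse name. All mice were adult male B6C3F1 hybrids. There were 6 vehicle controls given water (Con) and 6 mice given phenobarbital (PB), a drug that induces hepatic cytochrome P450 enzymes, at 600 ppm in drinking water for 7 days. FR tissue was flash frozen and its RNA was isolated in RNAzol. FFPE tissue went fresh into 10% neutral buffered formalin for 18 to 24 h and then into paraffin, and its RNA was isolated from sections with an FFPE kit that digests and heats the tissue. Both kinds of sample were pieces of several liver lobes, and both were depleted of ribosomal RNA and sequenced as total RNA, with a shorter fragmentation step for FFPE. FFPE blocks were stored for months at room temperature before RNA isolation, whereas FR tissue was stored frozen. Fixation, embedding, storage, isolation and fragmentation therefore changed together between the groups, and their effects cannot be told apart here.

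Formaldehyde joins proteins and nucleic acids by methylene bridges and adds methylol groups to bases, and the RNA that is recovered from paraffin is short and chemically modified. Fresh tissue is also alive when it enters the fixative, whereas freezing stops transcription and decay at once. Liver is a tissue in which a small number of hepatocyte transcripts, those of plasma proteins, urinary proteins and metabolic enzymes, make up much of the messenger RNA. Changes in a small set of genes therefore alter the proportion of all the others.

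Total counts on genes ran from 11737338 to 13702672 in FR and from 4952797 to 6760422 in FFPE, so FFPE values rest on fewer counts. The titles also carry an L number, read here as the sequencing lane although the labels do not spell it out, and it was not balanced. All 6 FFPE Con libraries had lane number 1 and all 6 FR Con libraries lane number 2, so in Con mice lane and preparation cannot be told apart. Cyp2b10, the P450 gene most strongly induced by PB, was checked in every library. It lay between 0.0768 and 0.737 CPM (counts scaled to a library total of 1000000) in FR Con and between 0 and 1.18 CPM in FFPE Con, whereas FR PB libraries had 1521 to 2287 CPM and FFPE PB libraries 1115 to 1709 CPM, as the treatment labels require. Hepatocyte markers such as Alb were abundant in every library.

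Of 13370 genes tested, 1706 (12.8%) were higher and 258 (1.93%) lower in FFPE when libraries were scaled to their total count on genes. A differentially expressed gene (DEG) was one that changed by 2-fold or more and passed 0.05 in the edgeR quasi-likelihood test after Benjamini-Hochberg adjustment, with mouse as a block. With TMM scaling, which sets the bulk of genes to no change, 814 (6.09%) were higher and 730 (5.46%) lower. The difference comes from the midpoint of the scale. The median log2 fold change of all genes was 0.32 with the total, 0.01 with TMM and -0.63 with the divisor behind the authors' CPM values. Counts on genes averaged 48.5 per 100 of that divisor in FR and 25.1 in FFPE. What else the divisor holds is not given in the sources used here. Differences of gene classes are therefore given relative to the median of all genes ("relative log2 fold change"), which is the same quantity on each scale apart from small changes in the fit, and counts of DEGs are given for total and TMM scaling. Unless said otherwise, the log2 fold change of a single gene is on the total scale, and CPM values are relative to the total count on genes. CPM ranges of FR and FFPE libraries did not overlap for 2709 genes (20.3%).

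Beyond the ribosomal RNA loci, one of the genes that rose most in FFPE was Fam193b (chr13:55539316-55571121, minus strand, GRCm38). It was at 9.86 CPM in the lowest, 13.8 in the median and 22.6 in the highest FR library, and at 69.3, 99.8 and 120 CPM in FFPE. The ranges were far apart and the gene was higher in 12 of 12 mice, by 2.78 ± 0.06 on the log2 scale (SE; adjusted p in edgeR = 2.07e-28). The glutamate receptor subunit gene Grik5 (log2 fold change 2.68) and Plppr2 (2.64), which are best known from the nervous system, rose from median FR levels of 2.69 and 1.71 CPM to 17.9 and 11.7 CPM, with no overlap of FR and FFPE libraries for either. Col27a1, a fibrillar collagen gene of cartilage, was at 4.1 to 18.4 CPM in FR and 29 to 99.4 CPM in FFPE, and A230050P20Rik at 9.3 to 14.9 and 56.5 to 79.4 CPM. The high rises of Erdr1 (3.60), H2-Q5 (2.79) and Oaz1-ps (3.73) are uncertain, because each shares sequence with other copies or with an overlapping gene, and Oaz1-ps lay below the all-gene median when lane number was added to the fit.

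The ranking of falls took genes called on both scales with a mean of 5 CPM or more. They also had the same sign in 12 of 12 mice. Electron transport, ribosomal protein and eIF genes were left out. The gene with the largest fall in this ranking was Rarres2. It encodes chemerin, an adipokine and chemoattractant made by hepatocytes (chr6:48569696-48572803, minus strand), and had 254, 294 and 408 CPM in the lowest, median and highest FR library and 68.1, 91.8 and 128 CPM in FFPE, without overlap, and its log2 fold change was -1.72 ± 0.04 (SE; adjusted p in edgeR = 7.49e-29). Prdx4, the peroxiredoxin of the endoplasmic reticulum, fell by 1.47 on the log2 scale, from a median of 83.6 CPM to 30.1 CPM. Sec61g, the small subunit of the protein channel of the same membrane, fell by 1.51, from 16.4 to 5.75 CPM. The copper chaperone gene Cox17 (-1.44), the mitochondrial RNA-binding protein gene Slirp (-1.43) and the calcium-binding protein gene S100a1 (-1.43) were lower without overlap of the groups too. Gm5424, Sap18b, Gm21320 and Rps15a-ps4 were also among the 15 largest falls of this ranking, but are uncertain, since they may share reads with similar copies.

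**Figure D1:**
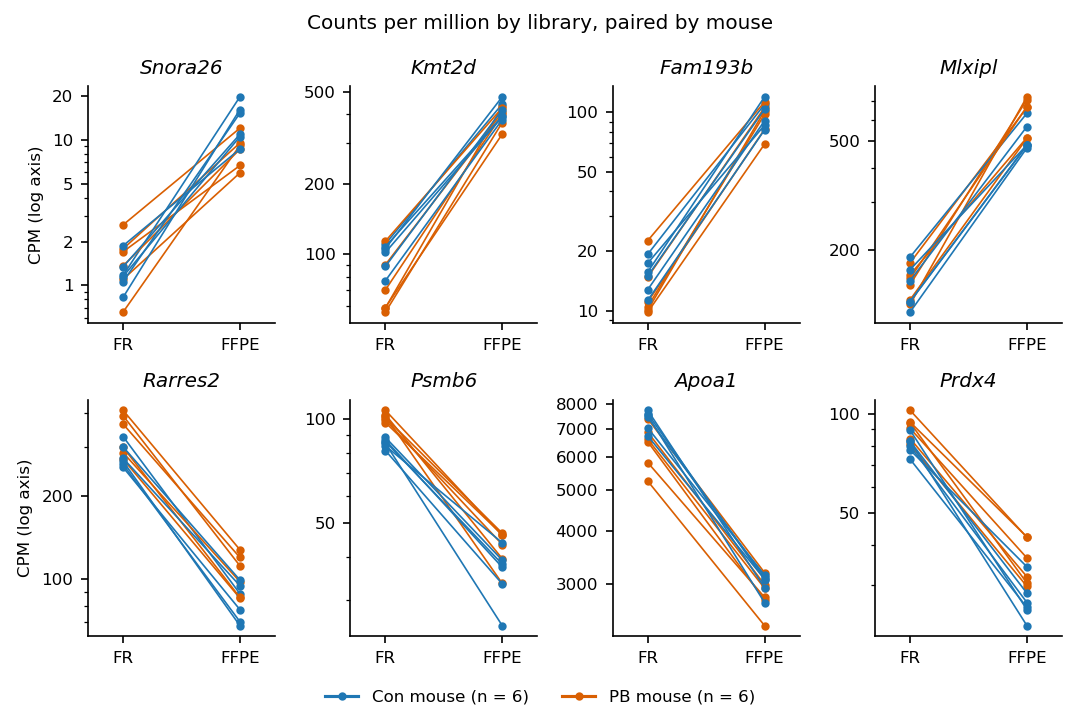
CPM (log axis) of 8 genes in the FR and the FFPE library of each mouse, joined by a line; blue lines are 6 Con mice and orange lines 6 PB mice. The 4 genes of the upper row rose and the 4 of the lower row fell in 12 of 12 mice, and in none of the 8 do the FR and FFPE ranges overlap.

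Small nucleolar RNAs guide the modification of ribosomal RNA. Those of the H/ACA class direct pseudouridylation and end in an ACA box, and those of the C/D class direct methylation. Most are cut from introns of host genes. The 3 members with the largest rise are shown as annotated in GENCODE M21 (GRCm38), 5′ to 3′, with the ACA box near the 3′ end in capitals, because the class turns on them. Snora26 lies at chr5:74093530-74093650, Snora16a at chr4:132309464-132309600 and Snora28 at chr12:111540941-111541067, all on the plus strand.
Snora26: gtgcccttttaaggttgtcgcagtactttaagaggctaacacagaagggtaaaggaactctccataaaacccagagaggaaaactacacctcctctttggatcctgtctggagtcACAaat
Snora16a: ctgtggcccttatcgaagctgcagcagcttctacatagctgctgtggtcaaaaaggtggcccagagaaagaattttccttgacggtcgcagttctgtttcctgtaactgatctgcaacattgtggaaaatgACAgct
Snora28: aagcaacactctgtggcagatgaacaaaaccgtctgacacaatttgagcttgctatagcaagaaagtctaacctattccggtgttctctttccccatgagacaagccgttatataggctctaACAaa

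Snora26 was at 0.655, 1.26 and 2.6 CPM in the lowest, median and highest FR library and at 5.92, 9.99 and 19.7 CPM in FFPE, a rise of 2.96 ± 0.17 on the log2 scale (SE; adjusted p in edgeR = 9.69e-18). Snora28 went from 0.292 to 2.6 CPM in FR to 3.63 to 13.2 CPM in FFPE, and Snora16a from 0 to 0.737 CPM to 1.15 to 4.24 CPM. FR and FFPE libraries did not overlap for these 3 genes. Of 20 H/ACA RNAs tested, 12 were DEGs with total scaling and 10 with TMM, all of them higher. Their median was 1.04 above that of all genes (SD over 12 mice 0.39), and above it in 12 of 12 mice. ACA boxes within 6 bases of the end were present in 18 of the 20 annotated sequences.

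The rise was not shared by every member. Snora74a, with a median of 98.3 CPM in FR and 100 CPM in FFPE, had a log2 fold change of 0.14, and Snora23 one of 0.30. Among 8 C/D RNAs, 5 were higher with total scaling, among them Snord104 (0.438 to 2.29 CPM in FR, 1.32 to 7.63 in FFPE) and Snord15a (5.82 to 11.8 and 11.5 to 24.8 CPM). Snord17 went the other way. It was at 213 to 356 CPM in FR and at 86 to 210 CPM in FFPE, without overlap, and was called lower with TMM scaling only. The summed share of small nucleolar RNAs in the library was 0.0621% ± 0.0108 in FR and 0.0675% ± 0.0177 in FFPE (SD, n = 12 mice), higher in 7 of 12 mice, which is within the spread between mice (exact two-sided sign-flip permutation test, adjusted p = 0.214 over 13 values tested). Whether reads came from the mature RNA or from the host intron was not tested. Genes annotated as long intergenic RNAs (114), antisense RNAs (100) and processed transcripts (113) had medians of 0.56, 0.53 and 0.50 above all genes, while 40 processed pseudogenes lay 0.41 below.

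Among 10 nuclear long noncoding RNAs, 7 were higher with total scaling and 4 with TMM, and the median was 0.95 above all genes (SD over mice 0.23). Firre, an X-linked RNA that organises nuclear architecture, rose from a median of 23.9 CPM (15.4 to 27.4) in FR to 74.1 CPM (59.5 to 93.3) in FFPE. No FFPE library was as low as the highest FR library. The noncoding genes that host small nucleolar RNAs differed more among themselves. Snhg11 (log2 fold change 2.06), Snhg7 (1.5) and Snhg17 (1.37) were among 4 of 15 that were higher, while the median of the 15 was 0.16 above that of all genes.

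The medians of histone and chromatin genes lay on opposite sides of that of all genes. Replication-dependent histones, which package newly made DNA, are encoded by messages that end in a conserved stem-loop in place of a poly(A) tail. Of 47 tested, none was called higher, 19 were lower with total scaling and 29 with TMM. Their median was 1.19 below that of all genes (SD over mice 0.22), between -1.39 and -0.73 in single mice. The stem-loop of 3 genes that fell and of 1 that did not is shown as it stands in GENCODE M21 transcripts, with flanks in lower case and in capitals the 16 bases of the pattern searched, which is GG, 3 free bases, TTTT, 1 free base, AG, 2 free bases and CC. In the annotated transcript that ends nearest to it, 1861 bases follow the pattern in Hist1h2be, 23 in Hist1h2bb, 3 in Hist1h4m and 1162 in Hist2h3c1.
Hist1h2be, chr13:23585531-23585546, minus strand: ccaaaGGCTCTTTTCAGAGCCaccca
Hist1h2bb, chr13:23747203-23747218, plus strand: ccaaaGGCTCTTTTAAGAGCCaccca
Hist1h4m, chr13:21812129-21812144, plus strand: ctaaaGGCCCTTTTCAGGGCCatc
Hist2h3c1, chr3:96247327-96247342, plus strand: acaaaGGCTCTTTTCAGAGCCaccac

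Hist1h2be was at 2.39, 5.58 and 8.91 CPM in the lowest, median and highest FR library and at 0.592, 1.42 and 4.68 CPM in FFPE, a fall of 1.62 on the log2 scale, seen in 12 of 12 mice although the ranges overlapped. With lane number in the fit its log2 fold change was -0.01. Hist1h2bb went from 1.42 to 11.4 CPM to 0.168 to 3.7 CPM, again with overlap. Hist1h4m had a log2 fold change of -2.16, the lowest of the list, but did not meet the call and level criteria for named genes. Levels of single histone genes are low and some copies are near identical, so single values are uncertain. In all, 113 of 13244 genes with a transcript (0.853%) held the pattern on the transcript strand. It was found in 33 of the 47 histone genes, with a median 1.21 below that of all genes. The 14 without a match in their annotated transcripts had a median of -1.03. The 80 other genes with the pattern lay 0.12 above the median. Hist2h3c1, whose stem-loop is shown above, had a log2 fold change of 0.48 and Hist2h2be one of 0.88. The 9 histone genes outside the list had a median of -0.48, with H1f0 at 0.46, H2afx at 0.64, H2afz at -0.66 and H3f3a at -1.15.

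Chromatin-modifying enzymes, which write, read and erase histone marks, had members called higher and none called lower. Of 85 tested, 22 were higher with total scaling and 11 with TMM, and 70 lay above the all-gene median, by 0.48 at the median (SD over mice 0.08; 12 of 12 mice). Kmt2d, the H3K4 methyltransferase of enhancers (chr15:98831669-98871206, minus strand), was at 56.5, 89.5 and 114 CPM in the lowest, median and highest FR library and at 329, 404 and 476 CPM in FFPE. Its libraries were far from overlapping, and the rise was 2.25 ± 0.06 on the log2 scale (SE; adjusted p in edgeR = 6.83e-27). Setd1b, a methyltransferase of the same mark at promoters, rose from a median of 20.1 CPM to 97 CPM, and the H3K27 demethylase gene Kdm6b from 11.5 CPM to 51 CPM. Together these enzymes held 0.366% ± 0.0335 of FR counts and 0.677% ± 0.0428 of FFPE counts (exact two-sided sign-flip permutation test, adjusted p = 5.77e-04 over 13 values). The unadjusted p of that test, 4.88e-04, is the smallest that 12 pairs allow. As a share of the authors' divisor the direction turned, to 0.177% and 0.169%.

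Zinc finger genes, the largest family of transcription factor genes in the mouse, had 90 of 405 members higher and 1 lower with total scaling, and 37 and 1 with TMM. Their median was 0.23 above that of all genes, and the share of counts rose from 0.508% ± 0.0331 to 0.796% ± 0.0376, a direction that also turned on the authors' divisor. Zfp579 (2.46), Zfp865 (2.14) and Zfp628 (2.07) had the largest log2 fold changes. Zfp865 had 2.68 to 6.22 CPM in FR and 14.3 to 25.3 CPM in FFPE. The single fall was that of Zfp992 (-1.04). Exchange and activating factors of small GTPases, which are long multidomain proteins, had 24 of 113 members higher with total scaling and 13 with TMM, and a median 0.36 above all genes, while the small GTPases themselves (86 tested, 1 DEG) had a median of -0.09.

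Splicing genes had medians on both sides of that of all genes. For reference, 12.8% of all genes were higher and 1.93% lower on the total scale, and 6.09% and 5.46% with TMM. Of 23 SR and SF3 genes, whose products select exons and recognise the branch point, 7 were higher with total scaling, and 2 were higher and 1 lower with TMM. The 7 included the neuronal factor gene Srrm4 (log2 fold change 1.68) and Srrm2 (1.29), and the median was 0.20 above all genes. Of 20 hnRNP genes, whose products coat nascent RNA, none was a DEG on either scale, and the median was 0.08. The antisense gene Srrm4os is in the list by its name, and since the strand used for counting is not given in the sources used here, its reads and those of Srrm4 cannot be told apart. The small Sm and LSm proteins that form the ring around spliceosomal RNAs had a median 0.77 below all genes, with 1 of 25 lower on the total scale and 7 with TMM. Snrpd2 fell from 11.4 to 15.8 CPM in FR to 3.83 to 7.1 CPM in FFPE. Of 28 RNA polymerase subunit genes, 2 were lower on the total scale, Polr2i (-1.38) and Polr2k (-1.11), both small subunits of polymerase II.

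Genes of several large protein assemblies had medians below that of all genes, with little spread over mice. Proteasome genes, which encode the particle that degrades ubiquitinated proteins, had a median 0.95 below all genes with an SD over mice of 0.05, and no mouse was outside -1.08 to -0.89. Of 38 tested, 6 were lower with total scaling and 17 with TMM. The barrel subunit gene Psmb6 was at 81.1, 93.1 and 106 CPM in the lowest, median and highest FR library and at 25.3, 39.3 and 46.8 CPM in FFPE, and Psmb3 at 27.9 to 40 and 11.3 to 15.9 CPM, with no overlap for either. The lid subunit gene Psmd3 (log2 fold change 0.56) was 1 of 2 members above the all-gene median. Ubiquitin-conjugating enzymes (median -0.05), large ubiquitin ligases (-0.03) and deubiquitinases (0.15), which act before the proteasome, stayed near the median of all genes.

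Genes of cytosolic chaperonin and prefoldin, which fold actin and tubulin, had a median of -0.92 (15 tested, 1 lower with total scaling, 5 with TMM), with Pfdn4 falling from 2.61 to 3.98 CPM to 0.404 to 2.01 CPM. The translocon and oligosaccharyltransferase, which move and glycosylate secreted proteins, had a median of -0.77, with 4 of 32 lower on the total scale. Sec61b (-1.10) and Tmem258 (-1.12) fell beside Sec61g. Mitochondrial ribosomal proteins had a median of -0.80 (78 tested, 6 lower, 20 with TMM), with Mrpl41 at 15.1 to 19.4 CPM in FR and 6.24 to 9.92 CPM in FFPE. The mitochondrial carriers of the Slc25 family, which shuttle metabolites, had a median of 0.01, with 7 of 42 members higher on the total scale, where 12.8% of all genes were, and 4 higher and 1 lower with TMM. Slc25a23, a calcium-regulated carrier of ATP and magnesium, rose from 136 to 185 CPM to 376 to 441 CPM.

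**Figure D2:**
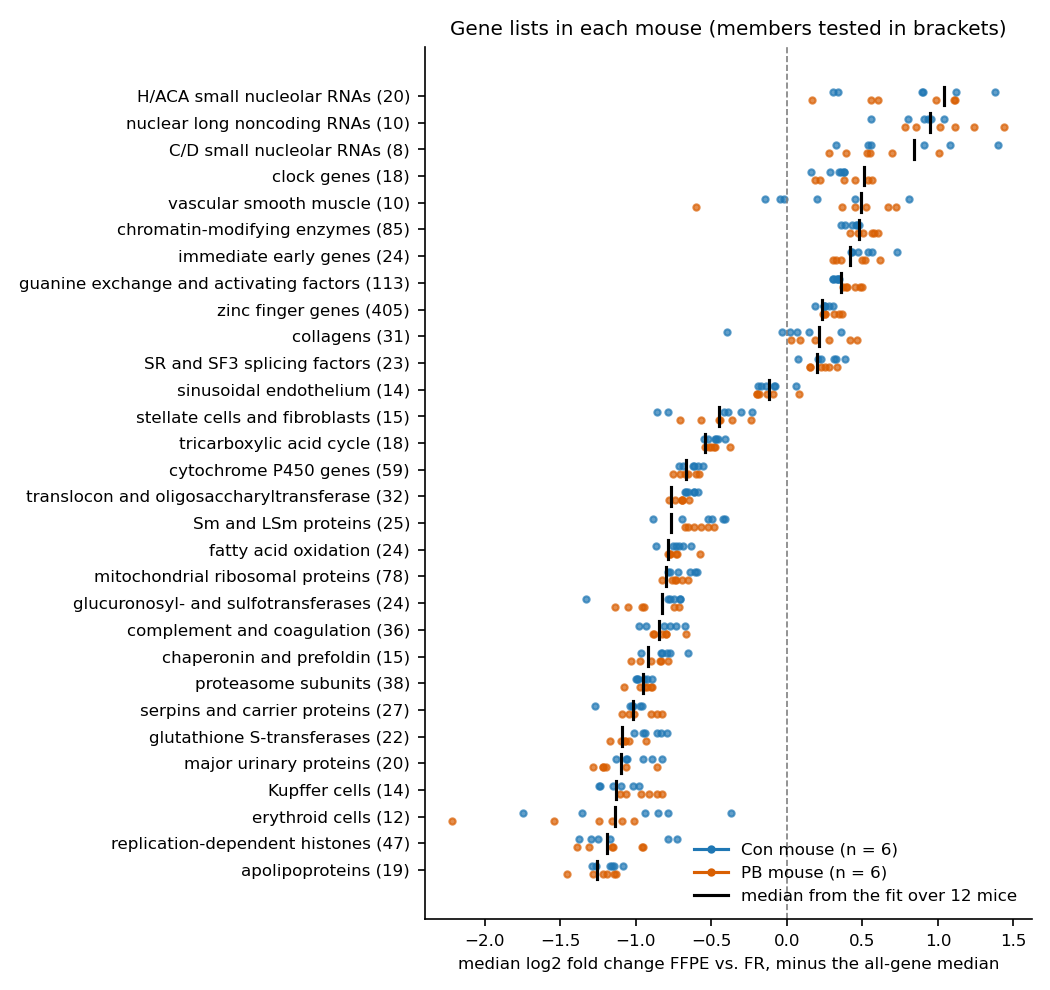
Median log2 fold change of 30 gene lists relative to the median of all genes, with 1 point per mouse (6 Con in blue, 6 PB in orange) and a black bar for the value from the fit over 12 mice. Small nucleolar RNAs and nuclear long noncoding RNAs lie at the upper end, histones and apolipoproteins at the lower end, and the proteasome points lie close together while those of erythroid and smooth muscle genes are spread.

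Metabolic pathways of hepatocytes lay below the all-gene median. Of all genes tested, 1.93% were lower on the total scale and 5.46% with TMM. Medians were -0.79 for fatty acid oxidation (24 genes, none called on the total scale and 2 lower with TMM), -0.54 for the tricarboxylic acid cycle (18 genes, none and 1), -0.54 for the urea cycle and amino acid breakdown (33 genes, 1 and 4) and -0.58 for bile acid synthesis and transport (16 genes, 2 and 2). Those that passed on both scales included Otc, the ornithine transcarbamylase of the urea cycle, at 310 to 498 CPM in FR and 167 to 235 CPM in FFPE, and Slc27a5, a bile acid coenzyme A ligase, at 637 to 910 and 321 to 458 CPM. In the fatty acid synthesis list, 2 of 16 genes were higher on the total scale and 1 with TMM, where 12.8% and 6.09% of all genes were. The 2 were Pnpla3 (1.07) and Mlxipl, which encodes the carbohydrate-responsive factor ChREBP that drives lipogenic genes. Mlxipl rose from 119, 152 and 189 CPM in the lowest, median and highest FR library to 473, 541 and 727 CPM in FFPE, a rise of 1.94 ± 0.05 on the log2 scale (SE; adjusted p in edgeR = 5.7e-27), whereas the 16 genes of fatty acid synthesis had a median of -0.11.

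Plasma and urinary proteins, which hepatocytes secrete, took a smaller part of the FFPE libraries. The 102 genes of these lists held 32% of counts in the lowest, 34.2% in the median and 37.6% in the highest FR library, and 17.4%, 19.6% and 22.8% in FFPE. FR and FFPE libraries did not overlap, and the mean difference was -14.6 percentage points (SD over mice 1.39; lower in 12 of 12 mice; exact two-sided sign-flip permutation test, adjusted p = 5.77e-04). Ribosomal RNA loci took 0.688% of FR and 10.8% of FFPE counts. With those loci left out the share still went from 34.9% ± 2.09 to 22.5% ± 2.16 (SD, n = 12). The 50 most abundant genes of each library held 39.1% ± 1.84 of FR and 26.8% ± 1.91 of FFPE counts.

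Apolipoproteins, the protein part of lipoproteins, had 7 of 19 genes lower on the total scale and 13 with TMM, with a median of -1.26. The list was made by name and also holds 6 genes that are not lipid carriers, such as Apobec1. Apoh was at 1707, 1941 and 2403 CPM in the lowest, median and highest FR library and at 676, 765 and 899 CPM in FFPE. Apoa2 fell from 2926 to 5498 CPM to 1245 to 2010 CPM, and Apoa1 from 5262 to 7744 CPM to 2392 to 3190 CPM. None of these ranges overlapped. Apob, by far the longest message of the family, barely differed, at 19604 to 24399 CPM in FR and 18160 to 22155 CPM in FFPE (log2 fold change -0.19). Serpins and carrier proteins had a median of -1.02 (27 tested, 7 lower, 14 with TMM), among them the haemopexin gene Hpx (-1.39) and Ambp (-1.29), and complement and coagulation genes one of -0.85 (36 tested, 4 lower, 13 with TMM). Hpx had a log2 fold change of 0.44 in the libraries of lane number 2 described further on. The fibrinogen chain gene Fgg had 3356 to 8231 CPM in FR and 1311 to 3477 CPM in FFPE.

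Major urinary proteins carry pheromones and are encoded by a cluster of near-identical genes, so the split of reads among copies is uncertain. Of 20 genes, 5 were lower and 2 higher with total scaling, and 12 and 2 with TMM, with a median of -1.10. Mup7 fell from 11448 to 18073 CPM to 4697 to 7819 CPM. Mup10 was higher instead, at 195, 292 and 433 CPM in the lowest, median and highest FR library and at 523, 1136 and 2056 CPM in FFPE, without overlap, and Mup5 rose from 0.156 to 0.655 CPM to 0.789 to 4.79 CPM.

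Lists of drug metabolism had medians below that of all genes. Glutathione S-transferases, which conjugate electrophiles, had a median 1.09 below all genes, with none of 22 called higher, 4 lower on the total scale and 13 with TMM. Mgst1, the microsomal enzyme, fell from 2164 to 3775 CPM to 976 to 1513 CPM. Their share of counts went from 0.814% ± 0.258 to 0.458% ± 0.149, where the SD includes the difference between Con and PB mice. Glucuronosyl- and sulfotransferases had 7 of 24 lower (10 with TMM) and a median of -0.83, with Ugt2b5 at 428 to 1342 CPM in FR and 193 to 547 CPM in FFPE. Cytochrome P450 genes held 2.40% ± 1.27 of FR and 1.52% ± 0.698 of FFPE counts, lower in 12 of 12 mice (exact two-sided sign-flip permutation test, adjusted p = 5.77e-04). Only 3 of 59 were lower on the total scale and 13 with TMM, and 3 were higher. Among them, the neighbouring genes Cyp2d10 and Cyp2d13 moved apart. Cyp2d10 fell from 497, 700 and 1037 CPM in the lowest, median and highest FR library to 216, 325 and 465 CPM, and Cyp2d13 rose from 67.7, 87.1 and 123 CPM to 201, 238 and 315 CPM, with no overlap for either. These genes share much sequence, and whether reads were divided differently between them was not tested.

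**Figure D3:**
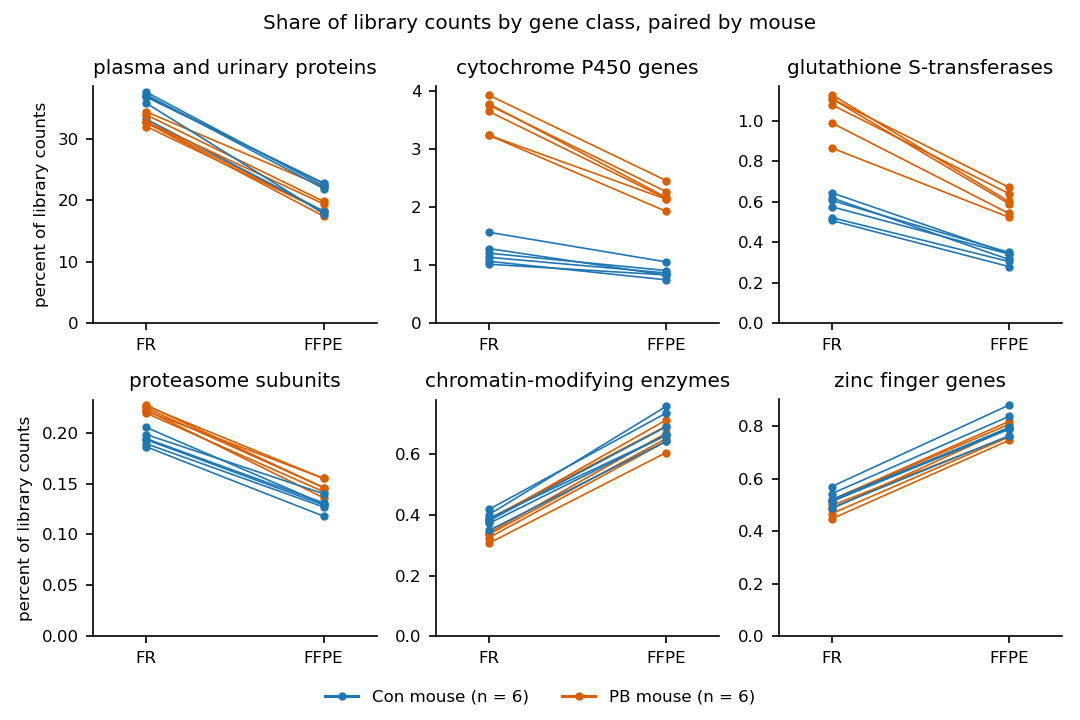
Share of library counts (percent, from 0) taken by 6 gene classes in the FR and the FFPE library of each mouse, joined by a line (blue, 6 Con; orange, 6 PB). Plasma and urinary proteins fell from 32% to 37.6% in FR to 17.4% to 22.8% in FFPE, the enzyme and proteasome classes fell in 12 of 12 mice, and chromatin-modifying enzymes and zinc finger genes rose in 12 of 12 mice on this scale.

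Markers of liver cell types did not move alike. In bulk tissue, fewer cells of a type and less RNA per cell cannot be told apart. Hepatocyte markers had a median of -0.99 (15 tested, 5 lower, 7 with TMM), and their summed level went from 126328 to 172098 CPM in FR to 70440 to 96569 CPM in FFPE. Members differed widely. Alb fell by 1.22 on the log2 scale, the tyrosine aminotransferase gene Tat had a log2 fold change of 0.00, and Hnf4a, the transcription factor gene that marks hepatocyte identity, was at 395 to 593 CPM in FR and 694 to 1041 CPM in FFPE (0.78).

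Kupffer cells, the resident macrophages, had a median of -1.13 (SD over mice 0.14), with 3 of 14 markers lower on the total scale, 8 with TMM and none higher. Their summed level was 566 to 1100 CPM in FR and 391 to 802 CPM in FFPE, so libraries overlapped. C1qa, a chain of complement C1q, was at 37.3, 51.8 and 83.8 CPM in the lowest, median and highest FR library and at 15.7, 22.6 and 37.4 CPM in FFPE. Folr2 (-1.22) and Marco (-1.14) fell as well, and Timd4 (-0.33) and Clec4f (-0.89), the defining markers, did not pass the fold criterion on the total scale.

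Sinusoidal endothelium had 14 markers with no DEG, a median of -0.12 and a summed level of 750 to 926 CPM in FR and 783 to 991 CPM in FFPE, and 13 large-vessel endothelial markers had 1 higher and a median of -0.04. In stellate cells and fibroblasts, Dcn, the gene of the matrix proteoglycan decorin, was the single DEG of 15 on the total scale, at 113 to 163 CPM in FR and 51.1 to 77.1 CPM in FFPE, with a median of -0.45. Vascular smooth muscle had 5 of 10 markers higher (3 with TMM), 6 of 10 above the all-gene median, and a summed level of 120 to 152 CPM in FR and 232 to 311 CPM in FFPE. Its median of 0.49 had an SD over mice of 0.42, and was above 0 in 8 of 12 mice, and it was 0.20 with lane number in the fit and 0.08 within lane number 2. The myosin gene Myh11 rose from 1.84 to 2.9 CPM to 3.95 to 14.4 CPM, but Lmod1 (1.57) had the other sign when lane number was in the fit, and Acta2 (0.51), Myl9 (-0.11) and Tagln (-0.28), the classical contractile genes, were not DEGs. Mylk (1.13), which is also expressed outside muscle, had most of the counts of the list.

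Bile duct cells, or cholangiocytes, had no common direction over mice. The list median was 0.35 above that of all genes, with an SD over mice of 0.5. In single mice it lay between -0.79 and 0.75, above that of all genes in 6 mice and below it in the others. On the total scale 3 of 11 markers were higher, where 12.8% of all genes were, among them Muc1 (1.36) and Krt7 (1.37). Spp1 was lower (-1.14), while the keratin gene Krt19 was at 0.56. Summed levels overlapped, at 74.9 to 175 CPM in FR and 84.8 to 142 CPM in FFPE. Erythroid markers had a median of -1.14 with an SD over mice of 0.48, between -2.22 and -0.37 in single mice. Their summed level was 584 to 1620 CPM in FR and 403 to 718 CPM in FFPE, and with lane number in the fit the median was -0.27. The globin genes made up all 6 falls. Hba-a2 had 82.3, 175 and 304 CPM in the lowest, median and highest FR library and 33.7, 58.6 and 112 CPM in FFPE, with overlap. Some globin copies are near identical. Of 6 mesothelial genes, 2 were lower on the total scale and 4 with TMM, with Slpi and Gpm6a at a few CPM. Few markers of T and NK cells (4), B and plasma cells (8) and neutrophils (6) passed the filter.

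Immediate early genes had 7 of 24 higher with total scaling but 1 with TMM, Zfp36, whose product destabilises cytokine messages (15.7 to 39.2 CPM in FR, 41.8 to 90.8 in FFPE). The list had a median 0.42 above all genes. Clock genes were similar, with 6 of 18 higher on the total scale, 1 with TMM (Per3) and a median of 0.51. After a spline in transcript length and GC content was taken off, these medians were 0.14 and 0.25. Over all genes, 12.8% were higher and 1.93% lower on the total scale, and 6.09% and 5.46% with TMM. Genes of the unfolded protein and amino acid stress response had a median 0.58 below all genes. In that list, 3 of 23 were higher and 1 lower on the total scale, and 1 was higher and 6 lower with TMM. Atf5, a factor induced by that response, rose from 71, 101 and 124 CPM in the lowest, median and highest FR library to 230, 328 and 439 CPM (log2 fold change 1.73 ± 0.04, SE; adjusted p in edgeR = 2.95e-29), while the chaperone gene Hspa5 fell from 724 to 1578 CPM to 367 to 850 CPM. Targets of hypoxia (median 0.07, with Vegfa at 1.73) and of NF-kappaB (0.00) stayed near the median of all genes. Heat shock genes lay below it (-0.52, with 1 of 21 higher on the total scale and 1 lower with TMM). Targets of p53 had a median of 0.09 in the fit and of 0.1 to 0.4 in single mice, above all genes in 12 of 12. Among 20 of them, 4 were higher on the total scale, including Bbc3 at 2.03, where 12.8% of all genes were, and 2 with TMM.

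Transcript length and GC content were related to the change. Genes were divided into deciles by each feature, using the annotation of 13248 genes. The median relative log2 fold change went from -0.33 in the shortest decile to 0.27 in the longest (SD over mice 0.04 in both), or from -0.70 to 0.25 when each gene was given its longest transcript. By GC content it went from -0.29 (SD 0.05) to 0.50 (SD 0.07), and 38.7% of genes in the decile richest in GC were higher on the total scale against 3.62% in the poorest. Across genes, which are not independent replicates, Pearson's r was 0.286 with log2 length and 0.323 with GC content, while length and GC content themselves had r = -0.167. In quartiles of both, short GC-poor genes had a median of -0.47 and long GC-rich genes one of 0.70. The decile with the highest mean CPM lay at -0.28 and the decile with the lowest at 0.24. On the total scale, 5.91% and 27.2% of their genes were higher.

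**Figure D4:**
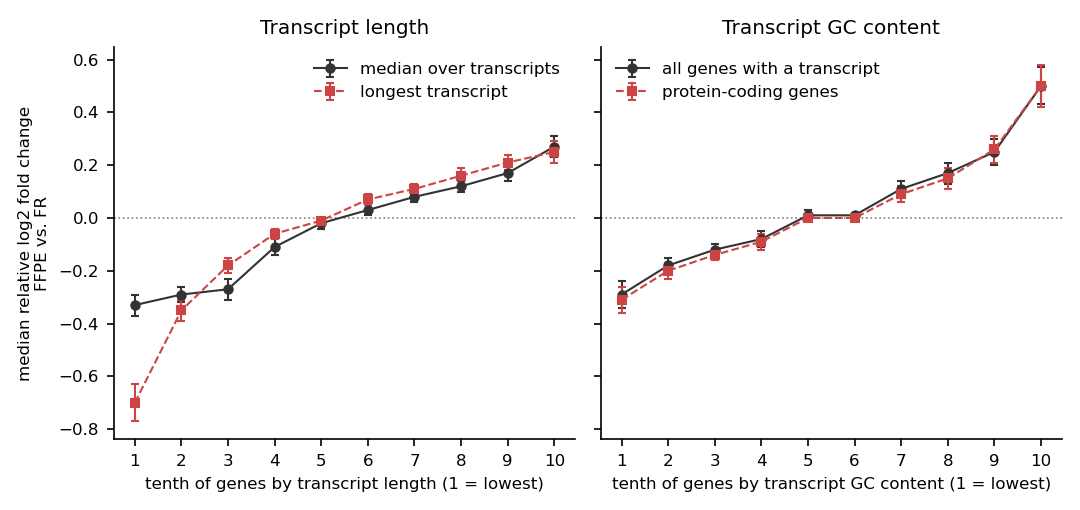
Median relative log2 fold change (FFPE vs. FR) in deciles of genes by transcript length (left; median over transcripts, or longest transcript) and by GC content (right; all genes with a transcript, or protein-coding genes), with bars for the SD over 12 mice. Values rise from -0.33 to 0.27 with length and from -0.29 to 0.50 with GC content.

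The classes differed in how much of their change remained after the spline, which took off 23.9% of the variance across genes. Medians were -1.26 for histones, -1.07 for apolipoproteins, -1.01 for Kupffer cells, -0.95 for hepatocytes and -0.91 for serpins and carriers, and those of H/ACA RNAs (1.56) and nuclear long noncoding RNAs (1.33) became larger. The values were smaller for chromatin-modifying enzymes (0.25), exchange factors (0.16), Sm and LSm proteins (-0.36) and the proteasome (-0.76), and for collagens the sign turned, from 0.21 to -0.11. In the collagens, 5 of 31 genes were higher on both scales, led by Col27a1, while Col1a2 (0.06) and Col3a1 (0.00), the fibrillar collagens of liver stroma, did not differ by the fold criterion.

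In Con mice 1525 genes (11.4%) were higher and 255 (1.91%) lower in FFPE, and in PB mice 1878 (14.0%) and 295 (2.21%). The test of the difference between treatments called 2 genes (0.0150%) at an adjusted p under 0.05 in edgeR. At an unadjusted p under 0.05 there were 1052, and DESeq2 called 10 and limma 0. Gstp2 encodes a glutathione S-transferase. It went from 37 to 48.1 CPM in FR Con to 21.9 to 34.8 CPM in FFPE Con, and from 42.9 to 65 CPM in FR PB to 19 to 28.1 CPM in FFPE PB. Its fall was larger in PB by 0.70 ± 0.13 on the log2 scale (SE; edgeR adjusted p = 0.0438). It has a near-identical neighbour, Gstp1, so its counts are uncertain. Maff, a small Maf factor gene, was the other (edgeR adjusted p = 0.0438), at no more than 2.86 CPM in any library. List medians in Con and PB were -0.97 and -0.97 for the proteasome, -1.20 and -1.23 for histones and 0.41 and 0.50 for chromatin-modifying enzymes. They were further apart for erythroid cells (-0.86 and -1.43), cholangiocytes (0.10 and 0.49) and small nucleolar RNA host genes (0.42 and 0.13), and the difference of list medians was not tested.

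Lane number could be held constant only among 4 PB libraries of different mice, 2 FFPE and 2 FR, which gives values with no test. There, medians were -0.90 for the proteasome, -0.70 for histones, 0.47 for chromatin-modifying enzymes, 0.28 for H/ACA RNAs, -1.47 for apolipoproteins and -0.40 for Kupffer cells. The acute-phase list, which has a median of -0.48 over 12 pairs, was at 1.16 in these libraries. With lane number as a term in the paired fit, the medians were -0.95, -1.07, 0.44, 1.85, -1.19 and -0.85, in the same order. Every mouse except 20B, 20D, 75C and 80B had lane number 1 in FFPE and 2 in FR. The preparation effect of that fit therefore leans on mice 20B, 20D, 75C and 80B, all PB. Its SE was larger, at 0.21 against 0.06 for Kmt2d and 0.89 against 0.21 for Hist1h2be. With the lane term, 1116 genes were DEGs. Some DEGs of the fit without it then had an adjusted p above 0.05 in edgeR. They included Hist1h2be, Hba-a2, Folr2, Synpo2, Lmod1, Muc1, Krt7, Slpi, Gpm6a, Polr2k, Snhg7 and Oaz1-ps. Whether lane or the larger SE took these calls away was not tested.

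Tissue that had been frozen before the same fixation (FR > FFPE, 12 libraries of the same mice) was also set against FFPE. This comparison shares its FFPE libraries with FFPE vs. FR, so each has only its own values. No lane number is shared between FFPE (1 and 2) and FR > FFPE (3 and 4), so lane and preparation cannot be told apart in it. Its median log2 fold change over all genes was -0.02, and 48 genes (0.359%) were higher and 25 (0.187%) lower in FFPE on the total scale, 54 (0.404%) and 24 (0.180%) with TMM. H/ACA RNAs had 8 of 20 members higher, with a median of 0.84, and Snora26 was higher by 2.21 on the log2 scale (adjusted p in edgeR = 3.81e-10). C/D RNAs had 2 of 8 higher. In smooth muscle, Myh11 (1.27) and Synpo2 (1.39), and in cholangiocytes Muc1 (1.20) and Krt7 were DEGs. The medians of the following classes were closer to 0 than against FR, with -0.51 for histones, -0.33 for the proteasome, -0.35 for apolipoproteins, -0.30 for Kupffer cells, -0.20 for complement and coagulation and 0.12 for chromatin-modifying enzymes, and the only DEG among them was 1 histone gene. Zinc finger genes had a median of -0.01 and sinusoidal endothelium one of 0.25. Kmt2d had 0.52, Rarres2 -0.77 and Atf5 0.87, all below the fold criterion.

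**Figure D5:**
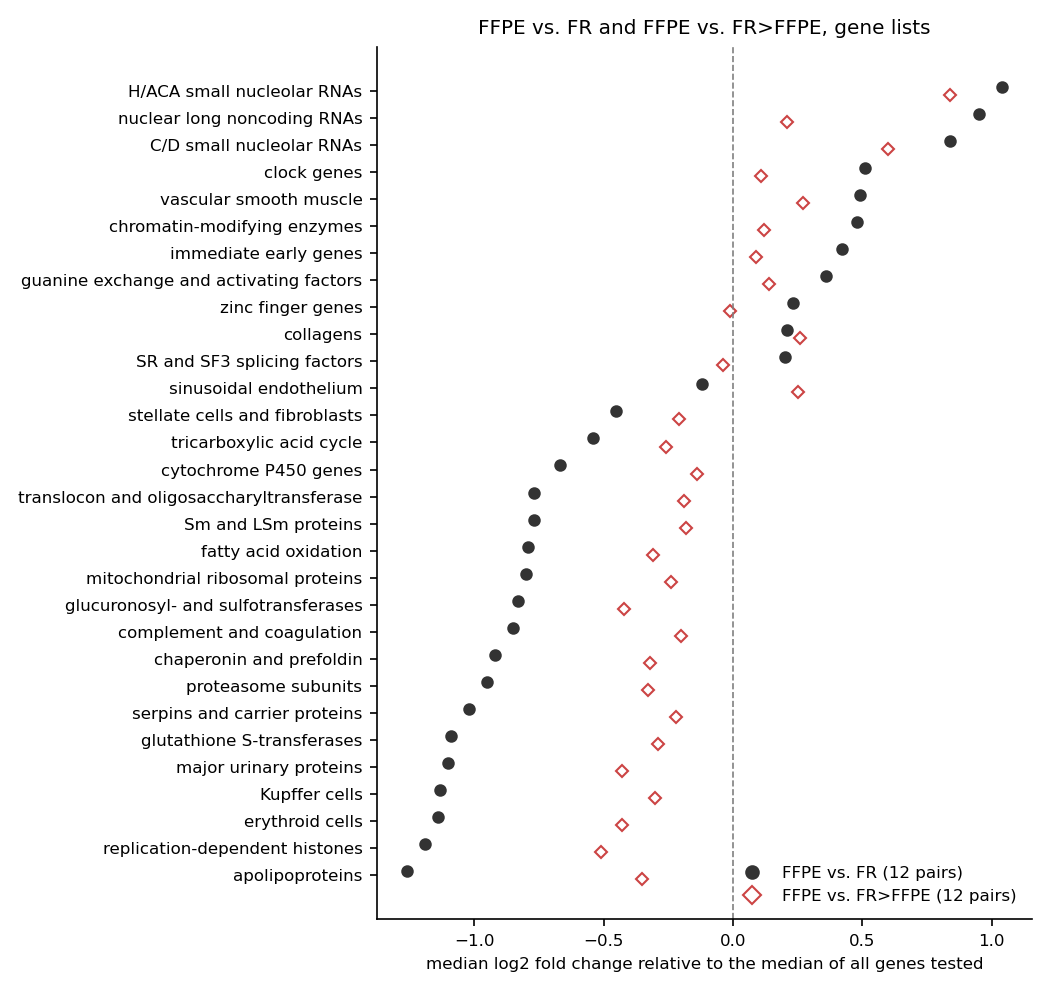
Median log2 fold change of 30 gene lists relative to all genes in FFPE vs. FR (black circles) and in FFPE vs. FR > FFPE (open red diamonds), each over 12 pairs of libraries. H/ACA RNAs lie at 1.04 and 0.84, whereas histones lie at -1.19 and -0.51 and the proteasome at -0.95 and -0.33.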

How the data were processed

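Livers of 12 mice gave 1 FR and 1 FFPE library each, sequenced as ribosome-depleted stranded total RNA. The authors deposited a table of estimated counts for 24543 genes. Per the labels, reads were aligned to mm10 (GRCm38) with STAR 2.5.3a, after CASAVA 1.8.2, and quantified in Partek. About 92% of the deposited values were whole, and the others were rounded to whole numbers. The authors also deposited log2 CPM values, used here for limma and for the divisor behind them. The strand setting of the counting is not given in the sources used here.

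A gene was tested if the geometric mean of its counts, with an offset of 1e-04, was above 1, which left 13370 genes. Counts were fitted with the quasi-likelihood test of edgeR 4.0.16 (R 4.3.3), with mouse as a block, and scaled to the total count on genes or by TMM. The call required a change of 2-fold or more and a p, adjusted by Benjamini-Hochberg, below 0.05. Comparisons by treatment used the adjusted p alone. Pairing came from the mouse names. Deviations of the 2 libraries of a mouse correlated at r = 0.624 or more (median 0.677; 12 of 12 pairs above 0.1; 5567 genes). Alternatives used limma 3.58.1, DESeq2 1.42.0, other scalings, filters and thresholds, a lane term, no block, thinned counts and leaving out each mouse. Single values were tested by exact two-sided sign-flip permutation with scipy 1.17.1. With 12 pairs, 1 CPM stood for 4.95 counts in the smallest library. No 2 libraries of a group were as alike as counting noise allows (smallest chi-square per degree of freedom 6.94 in 60 pairs). Fits were tested on simulated data. Length, GC content and sequences came from GENCODE M21.

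The members and gene lists were chosen with earlier results of these data known. Named genes were the 15 largest rises and falls among genes called on both scales with a mean of 5 CPM or more and the same sign in 12 of 12 mice, electron transport, ribosomal protein and eIF genes left out, up to 3 rises and 3 falls of each list called on both scales, the 2 most abundant members of a list without calls, the 5 smallest p by treatment, and label checks. Other genes were named after their values were seen. Some named genes are not reported here.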

Additional observations from a re-analysis of the deposited data

Results flagged for a closer look

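A sample far from the other 5 of its group was found in 15 of 280 groups of 6 mice, where chance gives about 1 in 20. Values are FFPE vs. FR log2 fold changes of 1 mouse, relative to all genes for lists. Among Con mice, mouse 8C was far from the rest for Mup7 (-1.31, others -1.18 to -1.10), for glucuronosyl- and sulfotransferases (-1.33, others -0.79 to -0.71) and for serpins and carrier proteins (-1.27, others -1.04 to -0.96). Mouse 8D stood apart for Sec61g (-0.82, others -1.61 to -1.34) and mouse 8A for Med25, a Mediator subunit gene (1.42, others 1.21 to 1.28).

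Among PB mice, mouse 75C had smaller rises of Lars2 (3.08, others 4.75 to 5.70) and Rn45s (2.91, others 4.17 to 4.92). Mouse 20D had the lowest values for the globin genes Hbb-bs and Hbb-b1 (-3.09, others -1.77 to -1) and the highest for fatty acid oxidation (-0.57, others -0.79 to -0.73). Mouse 18D stood apart for Ambp (-1.51, others -1.27 to -1.18), Bbc3 (1.04, others 1.79 to 2.15), Maff (-2.6, others -0.86 to -0.12) and hepatocyte markers (-1.04, others -0.94 to -0.88). Mouse 80B did so for vascular smooth muscle (-0.6, others 0.37 to 0.72).

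The FFPE vs. FR change differed between Con and PB for Gstp2 (difference -0.7) and Maff (-2.85), by the interaction test of edgeR.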

How the results depend on the processing

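The count of DEGs (1964; 1706 higher and 258 lower) depended on the threshold and on the scale. Calls were 86.9% higher with the total, 52.7% with TMM (814 higher, 730 lower), 3.32% with the authors' divisor (3761 in all, 125 and 3636) and 2.83% with limma, run on the deposited log2 CPM and so changing both test and scale (3892, 110 and 3782). DESeq2 called 851 higher and 725 lower. A lane term gave 1116 (884 higher), and with TMM 946 (333 higher, 613 lower), a fit chosen after seeing the data. The adjusted p alone gave 9977 (7393 and 2584) and a 1.5-fold limit 5148 (4156 and 992). Without the replicate block there were 1996 DEGs (1744 higher, 252 lower), the 2 calls by treatment fell to 0, and Gsta1 (-1.46 relative to all genes) no longer passed. Leaving out 1 mouse gave 1919 to 2014 DEGs (1674 to 1749 higher, 244 to 269 lower). In Con, 1780 DEGs became 3720 with the divisor and 3774 with limma, and in PB 2173 became 3794 and 3773. Against FR > FFPE, 73 DEGs became 997 with the divisor (9 higher, 988 lower) and 1097 with limma (9 and 1088), and 48 higher became 73 with scaling that leaves out genes over 1% of counts and 75 without a filter. By treatment, 2 became 0 with the divisor, limma and filterByExpr, 10 with DESeq2, 35 without a filter and 1 after thinning. The longest-minus-shortest difference of 0.6 became 0.95 with the longest transcript. As shares of the divisor, the differences turned to -0.00764 (chromatin-modifying enzymes), -0.0132 (small nucleolar RNAs) and -0.0468 (zinc finger genes). Relative to all genes, Oaz1-ps turned to -0.42 with a lane term and -0.45 with TMM too, Lmod1 to -0.71 and -0.7, and Maff to -0.87 with limma. Within lane number 2, values turned to 0.13 for Hpx, 0.32 for Orm1 and 0.92 for Apcs, and list medians to 1.16 (acute phase), 0.03 (cholesterol synthesis), 0.23 (metallothioneins and ferritin), 0.24 (integrins) and 0.07 (neutrophils). The median of G protein-coupled receptors was -0.06 after the spline. The cause of these changes was not tested.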
